A study of Arabidopsis thaliana with 4 samples.

Results

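The genes described here are the auxin-responsive genes of *Arabidopsis thaliana* seedlings, which carry "auxin-responsive" or "SAUR" in their deposited description. This rule, which uses no measured value, found 105 annotated genes among 22409 loci in the table. They comprise 28 Aux/IAA genes, 59 *SAUR* genes, 10 *GH3* genes, and 8 other genes. Their mRNA levels were compared between *upf1-5* single mutants, *upf3-1* single mutants, the *upf1-5 upf3-1* double mutant, and wild-type (WT) plants of the Col-0 accession. *upf1-5* and *upf3-1* are T-DNA insertion mutants of *UPF1* and *UPF3*, whose proteins take part in nonsense-mediated mRNA decay (NMD), the pathway that degrades mRNAs with aberrant or unusually placed stop codons. All 4 genotypes were grown under the same conditions on plates at 23°C under long days, 16 h of light and 8 h of dark. Whole seedlings that were 8 days old were pooled at ZT16, that is 16 h after the light came on. Each genotype is represented by 1 library from 1 pool, so no difference below has a replicate check and none was tested.

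Auxin is perceived by the TIR1/AFB F-box proteins, which bind Aux/IAA proteins in its presence and mark them for degradation. Aux/IAA proteins repress the auxin response factors (ARFs), and their removal lets ARFs activate target genes, among them the Aux/IAA, *SAUR*, and *GH3* families themselves. SAUR proteins are small, and those studied best inhibit PP2C.D phosphatases, which keeps the plasma membrane H+-ATPases active and promotes cell expansion. GH3 enzymes conjugate amino acids to acids such as indole-3-acetic acid, jasmonic acid, or benzoates.

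Some sequences help to read the values below. Most Aux/IAA proteins carry a degron, the stretch bound by the auxin receptor, with the residues Gly-Trp-Pro-Pro at its centre. A glycine codon followed in frame by TGGCCNCCN was found in the coding sequence of 22 of the 28 Aux/IAA genes. *IAA31* has the codons for Trp-Pro-Pro without that for Gly, and 5 genes (*IAA20*, *IAA30*, *IAA32*, *IAA33*, and *IAA34*) have neither. The coding stretches of the 3 Aux/IAA genes described most below that have the whole motif are shown with that of *IAA31*, from the RefSeq TAIR10.1 reference, 5′ to 3′ on the coding strand, with the 4 codons in capitals.
*IAA3*: cagattgttGGATGGCCACCAgttagatct
*IAA9*: caaattgtcGGTTGGCCTCCAgtgagatcc
*IAA17*: caagttgtgGGATGGCCACCGgtgagatca
*IAA31*: gcaagacaaGATTGGCCACCGataaagtct
The first capital codon is a glycine codon in *IAA3*, *IAA9*, and *IAA17*, and an aspartate codon in *IAA31*.

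ARFs bind auxin response elements, of which TGTCTC and TGTCGG were searched on both strands in the 250 nt upstream of each annotated transcript start. At least 1 of both motifs occurred upstream of 13 of 28 Aux/IAA genes (46.4%), 9 of 59 *SAUR* genes (15.3%), and 1 of 10 *GH3* genes, against 14.7% of 27444 protein-coding genes. TGTCTC alone occurred upstream of 10.9% and CACGTG upstream of 6.49% of all these genes. A match is a description of the letters and not a binding site. The upstream windows of 3 members are shown because they hold many, few, or no matches. TGTCTC on either strand (GAGACA where it is on the other one) and CACGTG, the G-box core bound by bZIP and bHLH proteins, are in capitals.
*IAA19* (plus strand, chr3:5263751-5264000): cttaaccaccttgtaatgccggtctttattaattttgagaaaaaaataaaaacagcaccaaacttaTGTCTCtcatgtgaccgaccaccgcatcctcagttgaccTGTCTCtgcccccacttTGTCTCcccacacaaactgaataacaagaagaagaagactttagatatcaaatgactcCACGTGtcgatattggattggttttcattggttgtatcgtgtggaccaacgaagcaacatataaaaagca
*SAUR15* (plus strand, chr4:18125807-18126056): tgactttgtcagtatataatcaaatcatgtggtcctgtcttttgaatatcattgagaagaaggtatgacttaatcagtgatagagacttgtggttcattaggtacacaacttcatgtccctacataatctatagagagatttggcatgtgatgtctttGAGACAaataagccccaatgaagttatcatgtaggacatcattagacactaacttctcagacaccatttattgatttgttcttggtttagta
*SAUR31* (minus strand, chr4:367275-367524): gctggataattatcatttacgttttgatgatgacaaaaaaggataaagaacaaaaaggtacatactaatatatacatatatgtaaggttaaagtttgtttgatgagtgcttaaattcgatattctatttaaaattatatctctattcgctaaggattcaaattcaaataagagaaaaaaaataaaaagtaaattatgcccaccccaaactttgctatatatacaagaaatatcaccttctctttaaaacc
The coordinates are those of TAIR10.1, and the authors aligned to TAIR10. None of the 16 *SAUR* genes that were at least 2-fold higher than in WT in *upf3-1* or the double mutant had TGTCTC or TGTCGG in this window, and 4 of the 19 that were at least 2-fold lower had TGTCTC. Of all 59 *SAUR* genes, 7 (11.9%) had TGTCTC, and the difference between these small groups was not tested. Among the 4, the window of *SAUR7* lies within the annotated *SAUR6* transcript, and *SAUR20* belongs to a cluster of near copies.

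Levels are given in FPKM, fragment numbers scaled by transcript length and library size, recovered for each library from the deposited pair sums and folds. A gene is counted as higher or lower when its FPKM ratio reached 2-fold and at least 1 of both libraries had 1 FPKM or more. The fold and FPKM limits follow the study, which also required a false discovery rate not applied here, and reading the FPKM limit as met by either library is a choice made here. The targeted genes follow the labels. *UPF1* had 3.18 FPKM in *upf1-5* mutants, 30.6 in *upf3-1* mutants, and 8.27 in the double mutant, against 23.9 FPKM in WT. *UPF3* had 33.7, 6.36, and 7.10 FPKM in the same 3 mutants, against 20.8 FPKM in WT. Each gene was thus lower than in WT in the mutants that carry its insertion, although transcript remained in them. Of the 105 genes, 93 had a value in all 4 libraries, 100 reached 1 FPKM in at least 1 library, and 5 stayed below it. Values were lacking for 3 members in *upf1-5*, 6 in *upf3-1*, 2 in the double mutant, and 3 in WT. The low values of each library cluster near multiples of 1 fragment, which gives an estimate of between 6.76 and 10.9 fragments for each FPKM and kb of transcript, highest in the double mutant and lowest in *upf3-1*. Only 62% to 67.4% of the lowest values lay within 0.2 of a whole fragment, so fragment numbers below are rough. They, and the intervals made from them, cover counting error only.

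The levels of tissue markers differed between the libraries, which is given before the members because whole seedlings were sampled. The 5 green tissue markers, such as *RBCS1A* for the small subunit of Rubisco, sum to 23950 FPKM in *upf1-5* mutants, 13602 in *upf3-1* mutants, and 12300.0 in the double mutant, against 28078 FPKM in WT. The 6 root markers sum to 86.2, 130, and 125 FPKM in these mutants, against 77.9 FPKM in WT. All of these markers were detected in every library. In *upf3-1* and in the double mutant, 3 of 5 green tissue markers were at least 2-fold lower than in WT and 1, *CAB2*, was higher, and 3 of 6 root markers (*PIN2*, *WER*, and *ATPT1*) were higher. Among seed storage genes, *CRU3* had 0.0805, 0.903, and 8.94 FPKM in these mutants, against 0.265 FPKM in WT, and *CRA1* had a value in *upf3-1* mutants (3.86 FPKM) and the double mutant (13.2 FPKM) only. The floral gene *SEP3* had 5.43, 12.7, and 1.02 FPKM, against 10.14 FPKM in WT. The part of these tissues in the results below was not tested. A smaller share of a tissue and less RNA per cell in it cannot be told apart in such samples.

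The auxin-responsive genes differed from WT in both directions. In *upf3-1* mutants, 22 of the 94 members past the limits were higher and 17 were lower, whereas of all loci 14.6% were higher and 6.91% were lower. In the double mutant, 17 of 92 were higher and 14 were lower, against 15.0% and 6.91% of all loci. In *upf1-5* mutants, 9 of 89 were higher and 9 were lower, against 7.64% and 2.40% of all loci. These counts are 10.11% higher and 10.11% lower in *upf1-5* mutants, 23.4% and 18.1% in *upf3-1* mutants, and 18.5% and 15.2% in the double mutant, each above the share of all loci in the same direction. They cover only members that passed the limits and were not tested. The excess of higher calls depended on level, split at a mean of 10 FPKM after the values were seen. At or above it, 6.82% of members were higher in the double mutant, against 7.06% of such loci. These shares were 13.6% against 7.12% for *upf3-1* and 4.55% against 3.19% for *upf1-5*. Below that mean they were 29.2% against 27.3%, 32.0% against 26.5%, and 15.6% against 14.9% in the same order. Lower calls exceeded those of such loci at both levels in every mutant. The median log2 ratio to WT over the 91 members with a value in every library and 1 FPKM in at least 1 was -0.03 in *upf1-5* mutants, -0.06 in *upf3-1* mutants, and -0.06 in the double mutant. Over the 20048 loci chosen the same way it was 0.00, -0.01, and 0.01. These medians use log2(FPKM + 1), which makes the differences of low genes smaller. All comparisons with WT share its library.

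**Figure D1:**
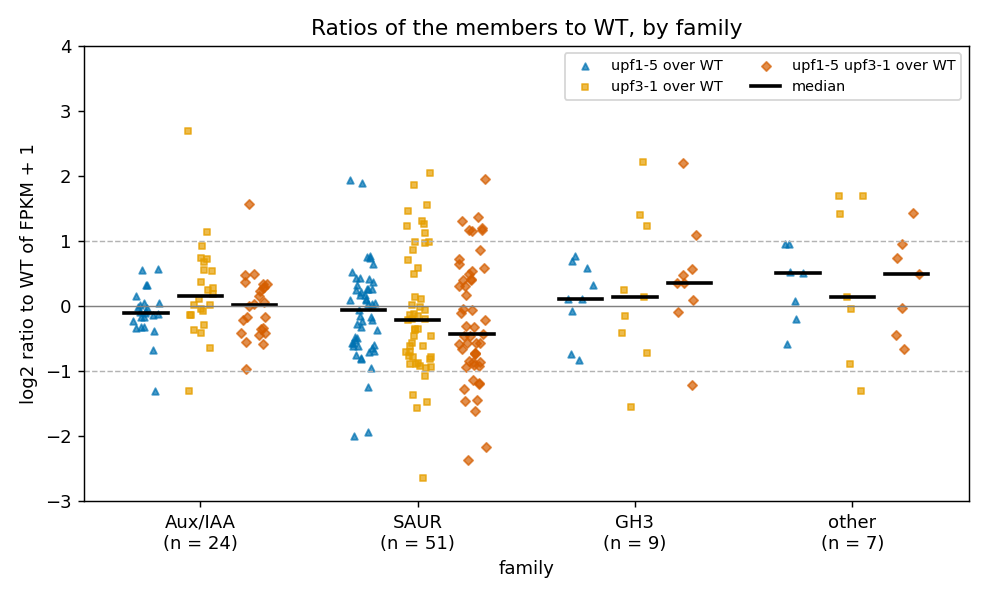
Log2 ratio to WT of FPKM + 1 for each member with a value in every library and at least 1 FPKM in 1 of them, by family and mutant. Points are genes, black bars are medians, and dashed lines mark 2-fold. The *SAUR* median lies at -0.06, -0.21, and -0.43 in *upf1-5*, *upf3-1*, and the double mutant, and single *SAUR* genes lie beyond 2-fold on both sides.

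Many calls rested on few fragments. Of the 22 members that were higher in *upf3-1* mutants, 7 had an estimated 50 fragments or more in that library, as had 7 of the 17 that were higher in the double mutant. Of the lower members, 9 of 17 in *upf3-1*, 5 of 14 in the double mutant, and 1 of 9 in *upf1-5* mutants had as many in WT. The genes just inside and just outside the limit show how narrow it is. In *upf3-1* mutants, *SAUR70* was 2.18-fold higher and counted, whereas *SAUR32* was 1.98-fold higher and did not. *SAUR3* was 2.03-fold lower there and counted, whereas *SAUR14* was 1.93-fold lower and did not. In the double mutant, *SAUR53* was just inside at 2.02-fold higher and *SAUR54* just outside at 1.93-fold, and among the lower genes *SAUR41* was inside at 2.09-fold and *SAUR21* outside at 1.98-fold. In *upf1-5* mutants, *SAUR37* (2.03-fold higher) and *AT1G48690* (2.02-fold lower) were just inside, and *AT5G47530* (1.94-fold higher) and *SAUR19* (1.85-fold lower) just outside.

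The *SAUR* family, the growth-promoting effectors, made up most of these genes. The 3 members with the highest level in WT, *SAUR6*, *SAUR14*, and *SAUR78*, were below WT in every mutant, whereas others, such as *SAUR31* and *SAUR55*, were above it. In *upf3-1* mutants, 14 of 53 *SAUR* genes past the limits were higher and 12 were lower, against 14.6% and 6.91% of all loci. In the double mutant, 12 of 54 were higher and 12 were lower, against 15.0% and 6.91%. In *upf1-5* mutants, 5 of 51 were higher and 6 were lower, against 7.64% and 2.40%. The summed level of the 59 *SAUR* genes was 1277 FPKM in *upf1-5* mutants, 1197 in *upf3-1* mutants, and 911 in the double mutant, against 1534 FPKM in WT. These sums are 0.833, 0.781, and 0.594 times the WT sum. A gene without a value in a library adds nothing to its sum. Over all loci, FPKM summed to 997083 in *upf1-5* mutants, 797314 in *upf3-1* mutants, and 775445 in the double mutant, against 1040990 FPKM in WT. The sum of the whole table was thus also below WT in each mutant, and its part in the *SAUR* sums was not tested. In *upf3-1* mutants it was below WT by a slightly larger share than the *SAUR* sum. In *upf1-5* and the double mutant the *SAUR* sum was further below WT than the whole table.

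*SAUR6* (*AT2G21210*, chromosome 2), the most abundant member in WT, carried much of the difference in the *SAUR* sum. It had 284 FPKM in *upf1-5* mutants, 156 in *upf3-1* mutants, and 89.3 in the double mutant, against 465 FPKM in WT. All 3 mutants were below WT, and the double mutant was lowest. Its level was 1.64-fold, 2.98-fold, and 5.21-fold lower than in WT, with an estimated 1089 fragments in the double mutant and 5382 in WT. The annotated transcript of *SAUR6* overlaps that of its neighbour *SAUR7* on the same strand, so fragments from their shared stretch cannot be assigned. *SAUR6* made up 30.3% of the *SAUR* sum in WT. Without it, the *SAUR* sum was 0.929 times that of WT in *upf1-5*, 0.975 times in *upf3-1*, and 0.769 times in the double mutant, a comparison chosen after the values were seen. Without the 5 most abundant members in WT, which include *SAUR31* and *SAUR32*, it was 0.907, 0.906, and 0.761 times that of WT. All of these sums stayed below WT, as did the sum over all loci in each mutant. In *upf3-1* and the double mutant, the sums without *SAUR6* were nearer to WT than the sum over all loci.

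*SAUR78* (*AT1G72430*, chromosome 1) followed the same order of libraries. It had 132 FPKM in *upf1-5* mutants, 71.9 in *upf3-1* mutants, and 33.1 in the double mutant, against 152 FPKM in WT. It was close to WT in *upf1-5* mutants, 2.12-fold lower in *upf3-1* mutants, and lower by 4.61-fold in the double mutant. *SAUR14* (*AT4G38840*, chromosome 4) had 154, 112, and 97.3 FPKM in the mutants in the same order, against 216 FPKM in WT. It passed the limit in the double mutant, at 2.22-fold lower, and stayed just inside 2-fold in *upf3-1* mutants.

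Less abundant *SAUR* genes were also lower. *SAUR56* (*AT1G76190*) had 1.56 FPKM in *upf1-5* mutants, 0.638 in *upf3-1* mutants, and 2.34 in the double mutant, against 9.25 FPKM in WT. WT stood apart from all mutants, and the difference was largest in *upf3-1*, at 14.5-fold, where only an estimated 2.1 fragments were seen. The 95% Clopper-Pearson interval of this ratio to WT, from estimated fragments, is 0.00780 to 0.254. *SAUR3* had 6.77, 4.83, and 2.94 FPKM in *upf1-5*, *upf3-1*, and the double mutant, against 9.81 FPKM in WT, and was 3.34-fold lower in the double mutant. *SAUR12* had 3.39, 4.72, and 1.74 FPKM, against 5.27 FPKM in WT, and was lower in the double mutant alone, by 3.03-fold. *SAUR20* had 13.5, 8.24, and 4.94 FPKM, against 15.2 FPKM in WT, and was 3.07-fold lower there, but belongs to a cluster of near copies described below.

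Other *SAUR* genes were higher in the mutants. *SAUR31* (*AT4G00880*, chromosome 4) had 115 FPKM in *upf1-5* mutants, 217 in *upf3-1* mutants, and 171 in the double mutant, against 73.5 FPKM in WT. All mutants were above WT, by 1.57-fold, 2.96-fold, and 2.32-fold, and *upf3-1* was highest. An annotated gene, *AT4G00883*, lies on the opposite strand within *SAUR31*, and fragments of both strands may be mixed in its value. *SAUR55* (*AT5G50760*, chromosome 5) had 40.6, 87.0, and 59.0 FPKM in these mutants, against 23.3 FPKM in WT. It showed the same order of libraries as *SAUR31* and was 3.73-fold higher in *upf3-1* and 2.53-fold higher in the double mutant. *SAUR32* had 85.2, 134, and 95.8 FPKM, against 67.6 FPKM in WT, and did not reach 2-fold in any mutant.

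Among *SAUR* genes with lower levels, *SAUR9* had 1.67 FPKM in *upf1-5* mutants, 3.46 in *upf3-1* mutants, and 7.73 in the double mutant, against 1.25 FPKM in WT. It was 6.17-fold higher in the double mutant, the largest ratio there among *SAUR* genes of 5 FPKM or more in any library, with an interval from 2.84 to 13.3. *SAUR37* had 4.17, 7.39, and 6.92 FPKM, against 2.05 FPKM in WT, and was 3.60-fold and 3.37-fold higher in *upf3-1* and in the double mutant. *SAUR74* had 2.13, 6.67, and 3.19 FPKM, against 0.866 FPKM in WT, and was 7.70-fold higher in *upf3-1* mutants. *SAUR49* (*AT4G34750*) was high in *upf3-1* mutants only. It had 21.9 FPKM in *upf1-5* mutants, 52.7 in *upf3-1* mutants, and 12.5 in the double mutant, against 21.4 FPKM in WT, 2.46-fold above WT in *upf3-1* mutants and 1.72-fold below it in the double mutant.

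**Figure D2:**
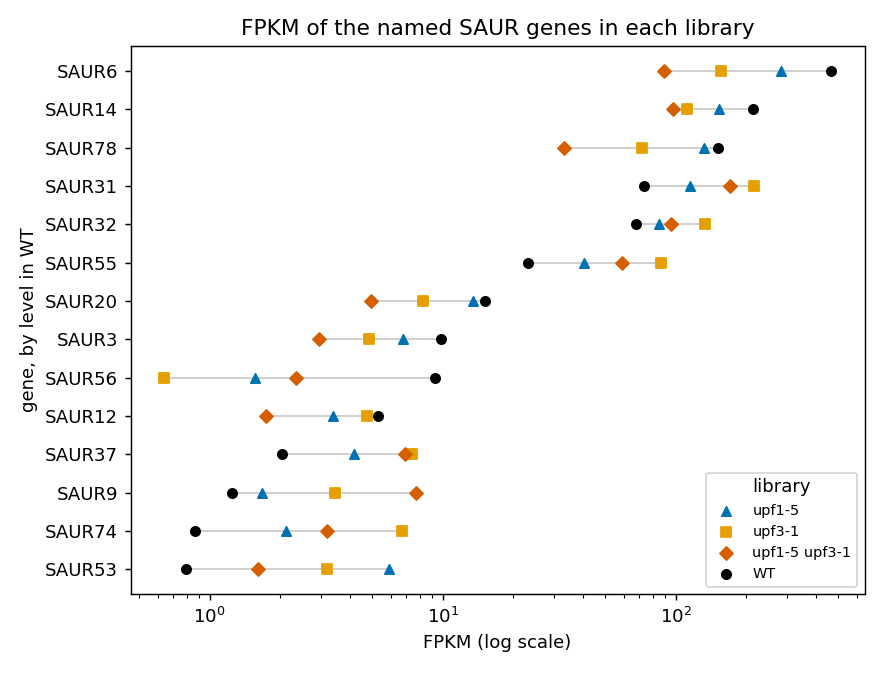
FPKM of the named *SAUR* genes in each library on a log axis, with genes ordered by their level in WT. Each symbol is 1 library, and grey lines span the 4 libraries of a gene. *SAUR6*, *SAUR14*, and *SAUR78* have WT at the right end and the double mutant at the left, whereas *SAUR31* and *SAUR55* have WT at the left end and *upf3-1* at the right.

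Most abundant *SAUR* genes had lower levels in the mutants. Of the 19 *SAUR* genes with a mean of 10 FPKM or more over the libraries, 15 were below WT in *upf3-1* mutants, 15 in the double mutant, and 12 in *upf1-5* mutants. Among all loci of that mean level, 7146 of 12155, 7203 of 12162, and 6818 of 12160 were below WT in the same comparisons. The median log2 ratio of these 19 genes was -0.57 in *upf3-1*, -0.74 in the double mutant, and -0.17 in *upf1-5* mutants, against -0.11, -0.12, and -0.04 over all such loci. Past 2-fold, 3 were higher and 2 lower in *upf3-1* mutants, where 7.12% of such loci were higher and 5.80% lower. In the double mutant, 2 were higher and 4 lower, against 7.06% and 7.06% of such loci. In *upf1-5* mutants, 0 were higher and 1, *SAUR57*, was lower, against 3.19% and 0.576% of such loci. *SAUR57* had 5.77 FPKM in *upf1-5* mutants, 19.1 in *upf3-1* mutants, and 13.3 in the double mutant, against 24.95 FPKM in WT. It was lowest in *upf1-5*. This split by level was chosen after the values were seen. The summed level of the green tissue markers was also below WT in each mutant, as given above, and their part in the lower *SAUR* levels was not tested. That sum consists mostly of the Rubisco genes *RBCS1A* and *RBCS2B*, with 18826 and 8488 FPKM in WT. *CAB2* went the other way, with 20.6, 34.3, and 45.1 FPKM in *upf1-5*, *upf3-1*, and the double mutant, against 13.7 FPKM in WT.

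Of the 40 *SAUR* genes with a lower mean, 11 were higher and 10 lower in *upf3-1* mutants among 34 past the limits. In the double mutant, 10 were higher and 8 lower among 35. Among all loci of that level the calls were mostly higher, with 26.5% higher and 8.67% lower in *upf3-1* and 27.3% higher and 6.67% lower in the double mutant. The weakly expressed *SAUR* genes had nearly as many lower as higher calls.

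Many *SAUR* genes stand in tandem clusters, here at least 3 members less than 20 kb apart. The cluster of *SAUR7*, *SAUR6*, and *SAUR12* on chromosome 2 summed to 289 FPKM in *upf1-5* mutants, 162 in *upf3-1* mutants, and 92.8 in the double mutant, against 474 FPKM in WT. The cluster of *SAUR14*, *SAUR15*, and *SAUR16* on chromosome 4 summed to 212, 161, and 136 FPKM, against 289 FPKM in WT. Both clusters had the same order of libraries, which is that of *SAUR6* and *SAUR14*, with 465 and 216 FPKM in WT the largest part of each sum. Their other members did not all share it. All 3 genes of the second cluster were below WT in the double mutant. *SAUR15*, whose upstream window is shown above and which is strongly induced by auxin, had 3.47 FPKM in *upf1-5* mutants, 6.14 in *upf3-1* mutants, and 1.92 in the double mutant, against 5.65 FPKM in WT. *SAUR16* had 55.03, 43.3, and 36.7 FPKM, against 67.0 FPKM in WT.

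The 7 members of the cluster from *SAUR61* to *SAUR68* on chromosome 1 summed to 99.1 FPKM in *upf1-5* mutants, 85.9 in *upf3-1* mutants, and 84.4 in the double mutant, against 128 FPKM in WT. *SAUR61*, at 1.20 FPKM in WT, has no value in *upf3-1* mutants. In this cluster 2 members, *SAUR64* and *SAUR65*, were lower in *upf3-1* mutants and none was higher. *SAUR49*, *SAUR50*, *SAUR1*, *SAUR3*, and *SAUR4* on chromosome 4 summed to 106, 103, and 63.7 FPKM, against 113 FPKM in WT. There *SAUR49* was higher and *SAUR3* and *SAUR4* were lower in *upf3-1* mutants, so neighbours differed from WT in opposite directions. The cluster of *SAUR26* to *SAUR29* on chromosome 3 had no member counted as higher or lower in *upf3-1* or the double mutant, although *SAUR28*, below 1 FPKM in every library, was 2.07-fold lower in *upf3-1*, and summed to 14.3, 12.8, and 14.8 FPKM, against 14.9 FPKM in WT.

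The *SAUR19* to *SAUR24* cluster on chromosome 5, whose products promote cell expansion in hypocotyls, consists of near copies. Each coding sequence is 91.7% to 95.2% identical to that of its nearest member. Coding bases 31 to 90 of the closest pair are shown to make this visible, with the base that differs in capitals.
*SAUR19*: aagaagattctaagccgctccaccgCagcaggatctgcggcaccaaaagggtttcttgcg
*SAUR24*: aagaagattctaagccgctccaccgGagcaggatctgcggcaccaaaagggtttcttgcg
Of these 60 bases, 59 are identical, so fragments could be split between the copies and the level of each gene is uncertain. *SAUR24*, for example, lacks a value in *upf3-1* mutants and had 12.99 FPKM in *upf1-5* and 6.19 FPKM in the double mutant, against 4.74 FPKM in WT. The 6 genes together summed to 44.0 FPKM in *upf1-5* mutants and 24.1 in the double mutant, against 42.0 FPKM in WT. In *upf3-1* mutants the sum, which lacks *SAUR24*, was 26.1 FPKM. Their sum in the double mutant was 0.574 times that of WT. The sum in *upf1-5* mutants was close to WT, with *SAUR24* above its WT level. The ratio in *upf3-1* mutants, 0.621, sets a sum without *SAUR24* against a WT sum that includes it.

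**Figure D3:**
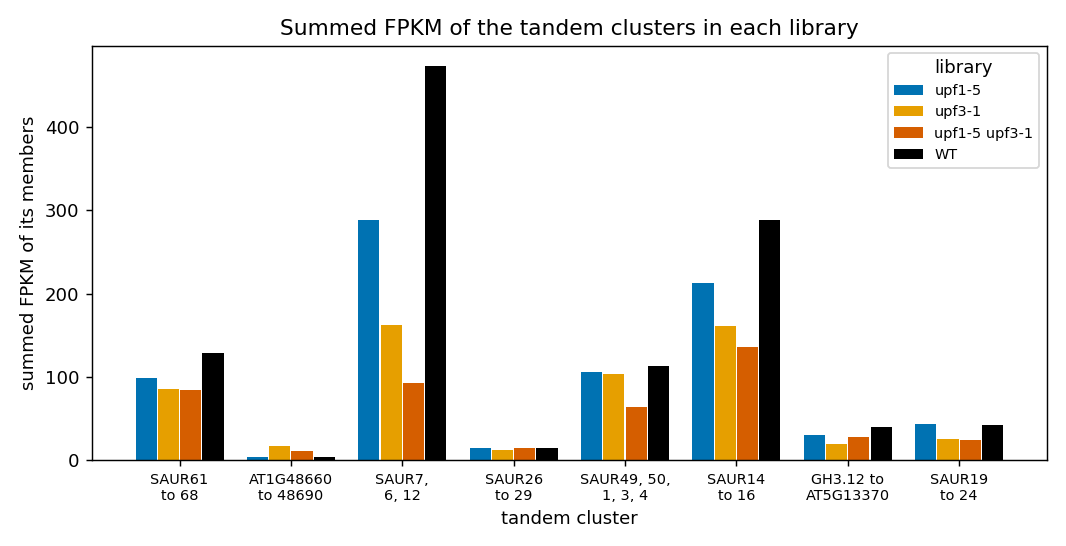
Summed FPKM of the members of each of the 8 tandem clusters, with 1 bar per library. A gene without a value in a library adds nothing to its bar. The *SAUR7*, *SAUR6*, and *SAUR12* cluster stands at 92.8 FPKM in the double mutant against 474 FPKM in WT, and the *SAUR14* to *SAUR16* cluster at 136 against 289 FPKM.

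The Aux/IAA repressors were mostly within 2-fold of WT, and several of them were highest in *upf3-1* mutants. Past the limits, 2 of 25 were higher (*IAA3* and *IAA31*) and 2 were lower (*IAA29* and *IAA30*) in *upf3-1* mutants, where 14.6% of all loci were higher and 6.91% lower. Of 23 in the double mutant, 1 was higher and 1 was lower, against 15.0% and 6.91% of all loci. In *upf1-5* mutants, 1 of 24 was higher and 2 were lower, against 7.64% and 2.40%. Most loci of the whole table were within 2-fold as well, 15531 of 19789 in *upf3-1* mutants. The family summed to 1486 FPKM in *upf1-5* mutants, 1926 in *upf3-1* mutants, and 1462 in the double mutant, against 1503 FPKM in WT. The sum in *upf3-1* mutants was 1.28 times that of WT and 1.29 times without the 5 most abundant members, so it did not rest on these. The sum over all loci, given above, was below WT in the same library. The median log2 ratio to WT over 24 Aux/IAA genes was 0.15 in *upf3-1*, 0.02 in the double mutant, and -0.10 in *upf1-5* mutants.

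*IAA9* (*AT5G65670*, chromosome 5), the most abundant Aux/IAA gene, had 249 FPKM in *upf1-5* mutants, 399 in *upf3-1* mutants, and 248 in the double mutant, against 242 FPKM in WT. Only *upf3-1* stood apart, at 1.65-fold above WT. *IAA17* (*AXR3*), gain-of-function alleles of which make plants insensitive to auxin, had 48.6, 83.5, and 51.5 FPKM, against 43.7 FPKM in WT. *IAA3* (*SHY2*), a repressor that limits root meristem size, had 67.0, 99.8, and 56.8 FPKM, against 44.7 FPKM in WT. *IAA3* and *IAA17* were thus highest in *upf3-1* mutants as well, by 2.23-fold and 1.91-fold, while the double mutant lay nearer to WT. The 3′ part of *IAA3* overlaps *AT1G04230* on the opposite strand, and fragments of both may be mixed there. *IAA4* had 157, 209, and 175 FPKM, against 125 FPKM in WT, and was highest in the same library.

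The other abundant repressors differed little from WT. *IAA16* had 201 FPKM in *upf1-5* mutants, 278 in *upf3-1* mutants, and 210 in the double mutant, against 235 FPKM in WT. *IAA8* had 223, 195, and 186 FPKM, against 215 FPKM in WT. *IAA7* (*AXR2*) had 163, 199, and 134 FPKM, against 184 FPKM in WT. None of these 3 reached 1.5-fold. Among members of 5 FPKM or more in any library, the lowest Aux/IAA ratio in the double mutant was that of *IAA18*, with 36.6 FPKM against 53.8 FPKM in WT, 1.47-fold lower. *IAA12* (*BDL*), which acts in the embryo, had 39.0 FPKM in *upf1-5* mutants, 32.7 in *upf3-1* mutants, and 33.4 in the double mutant, against 42.4 FPKM in WT. *IAA26* had 47.5, 55.7, and 53.7 FPKM, against 37.9 FPKM in WT. *IAA28* had 56.3, 72.2, and 70.5 FPKM, against 55.7 FPKM in WT. *IAA19* (*MSG2*), whose upstream window with 3 TGTCTC motifs is shown above, had 3.8, 3.33, and 2.98 FPKM, against 4.29 FPKM in WT. *IAA10* and *IAA11* were within 1.5-fold of WT in the double mutant.

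*IAA31* (*AT3G17600*, chromosome 3), whose coding sequence lacks the glycine codon of the degron, showed the largest ratios of the family. It had 1.52 FPKM in *upf1-5* mutants, 10.03 in *upf3-1* mutants, and 4.07 in the double mutant, against 0.707 FPKM in WT. All mutants were above WT, and *upf3-1* was highest. The ratio to WT was 2.14 in *upf1-5* mutants, 14.2 in *upf3-1* mutants, and 5.76 in the double mutant. With an estimated 41 fragments in *upf3-1* and 4.5 in WT, the interval of the ratio in *upf3-1* is 5.66 to 60.1.

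The other Aux/IAA genes that lack the degron motif had other patterns. *IAA30* had 3.53 FPKM in *upf1-5* mutants, 0.973 in *upf3-1* mutants, and 2.83 in the double mutant, against 3.89 FPKM in WT, and was low in *upf3-1* alone. *IAA32* had 0.315, 1.45, and 0.658 FPKM, against 2.25 FPKM in WT. *IAA20*, *IAA33*, and *IAA34* lacked a value in at least 1 library and did not exceed 1.37 FPKM in any.

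**Figure D4:**
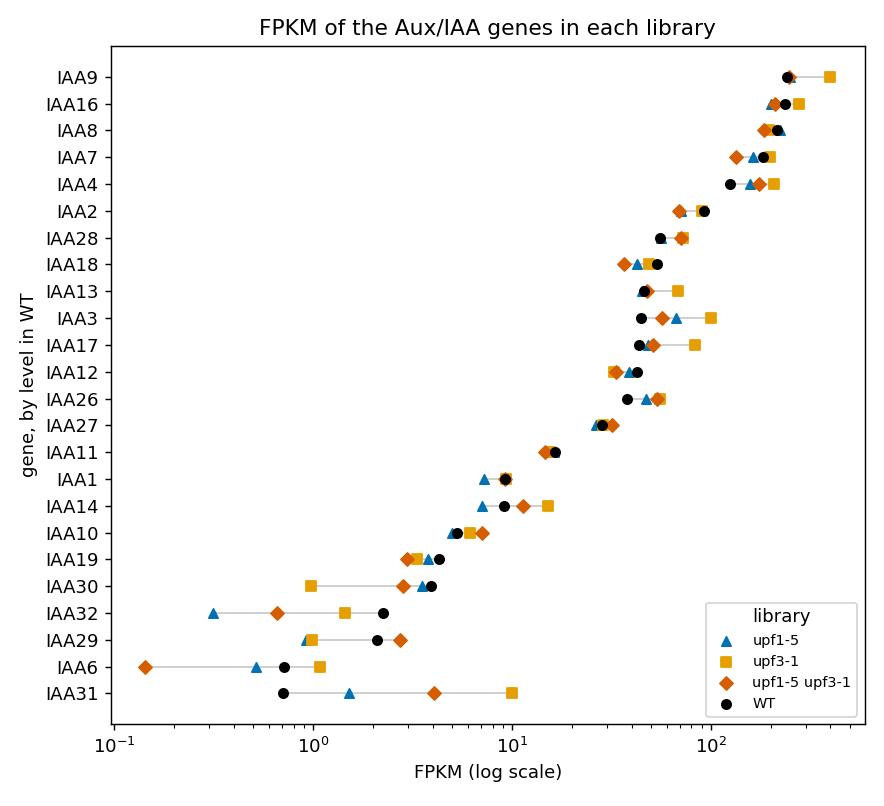
FPKM of the 24 Aux/IAA genes with a value in every library, on a log axis and ordered by their level in WT. Each symbol is 1 library. The *upf3-1* symbol stands at the right end for *IAA9*, *IAA4*, *IAA3*, *IAA17*, and *IAA31*, and the symbols of most genes above 10 FPKM lie close together.

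The *GH3* genes in this set are those whose descriptions call them auxin-responsive, and 9 of them are among the 19 genes of the *GH3* family list. In *upf3-1* mutants, 3 of 9 past the limits were higher and 1 was lower, against 14.6% and 6.91% of all loci. In the double mutant, 2 of 8 were higher and 1 was lower, against 15.0% and 6.91%, and in *upf1-5* mutants 1 of 7 was higher and 1 was lower, against 7.64% and 2.40%. *AT1G48670*, *AT1G48660*, and *AT1G48690* stand together on chromosome 1. *AT1G48670* had 0.917 FPKM in *upf1-5* mutants, 4.23 in *upf3-1* mutants, and 4.202 in the double mutant, against 0.128 FPKM in WT. WT was lowest, with an estimated 1.9 fragments, and the intervals of the ratios to WT are 8.12 to 267 in *upf3-1* and 8.197 to 260 in the double mutant. *AT1G48690* had 1.91, 11.8, and 5.80 FPKM, against 3.86 FPKM in WT, and was 3.05-fold higher in *upf3-1* mutants.

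*AT5G13370* (chromosome 5) was lower in every mutant. It had 14.1 FPKM in *upf1-5* mutants, 8.12 in *upf3-1* mutants, and 10.6 in the double mutant, against 25.8 FPKM in WT. The ratio to WT was lower by 1.83-fold, 3.18-fold, and 2.44-fold. *GH3.11* (*JAR1*), which conjugates jasmonic acid to isoleucine, had 33.4, 34.0, and 39.9 FPKM, against 30.9 FPKM in WT. *GH3.12* (*PBS3*), which acts in salicylic acid synthesis, had 2.91, 0.813, and 4.15 FPKM, against 1.43 FPKM in WT. *GH3.11* differed little between libraries, and *GH3.12* was above WT in both mutants with the *upf1-5* allele and below it in *upf3-1* mutants. *DFL2* had 16.8, 10.4, and 16.6 FPKM, against 17.7 FPKM in WT, and *AT5G13360* had 13.5, 11.1, and 13.3 FPKM, against 12.4 FPKM in WT.

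The 8 remaining genes are *AIR12*, 6 genes known by locus ID only, and *AT2G07677*, described as related to an auxin response factor, which stayed below 1 FPKM. *AT3G25290* (chromosome 3) had 18.1 FPKM in *upf1-5* mutants, 30.7 in *upf3-1* mutants, and 25.6 in the double mutant, against 8.82 FPKM in WT. *AT4G17280* had 14.8, 25.4, and 12.5 FPKM, against 7.14 FPKM in WT. WT was lowest for both, and *AT3G25290* was 2.05-fold, 3.48-fold, and 2.90-fold higher in the mutants, while *AT4G17280*, which overlaps other annotated genes, was 2.08-fold, 3.56-fold, and 1.75-fold higher. *AT5G35735* had 25.5, 15.0, and 23.97 FPKM, against 38.6 FPKM in WT, and was 2.57-fold lower in *upf3-1* mutants. *AIR12*, which encodes an extracellular cytochrome found by its induction with auxin in roots, had 55.2, 37.3, and 54.8 FPKM, against 38.5 FPKM in WT. *AT4G12980* had 16.6, 17.4, and 15.4 FPKM, against 15.7 FPKM in WT, and *AT2G04850* had 6.21, 3.50, and 5.11 FPKM, against 7.32 FPKM in WT.

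The effect of each mutation in the background of the other was read from the double mutant without the WT library. Set against *upf1-5* mutants, the double mutant had 10 of 89 members higher and 10 lower, where 9.64% of all loci were higher and 4.47% lower. Set against *upf3-1* mutants, it had 11 of 92 higher and 13 lower, where 6.67% of all loci were higher and 4.69% lower. *SAUR78* was lower in the double mutant than in either single mutant, by 3.99-fold against *upf1-5* and 2.17-fold against *upf3-1*. *SAUR6* was 3.18-fold lower than in *upf1-5* mutants and 1.75-fold lower than in *upf3-1* mutants. *SAUR49* was 4.23-fold lower in the double mutant than in *upf3-1* mutants. Of the 24 Aux/IAA genes past the limits, 19 were lower in the double mutant than in *upf3-1* mutants, with a median log2 ratio of -0.32, against 0.00 over all loci.

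The effect of *upf3-1* could be compared between both backgrounds without a shared library. Over 91 members, the log2 ratios of *upf3-1* over WT and of the double mutant over *upf1-5* had a Pearson r of 0.376, and 30 members were higher in both, 34 lower in both, and 27 opposite. Over all 20048 loci this r was 0.497, with 6526 higher in both, 6817 lower in both, and 6683 opposite. For *upf1-5*, the ratios of *upf1-5* over WT and of the double mutant over *upf3-1* had an r of -0.087 over the members and 0.117 over all loci. These values are across genes that share libraries, depth, and in part sequence, and they describe the 4 libraries.

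**Figure D5:**
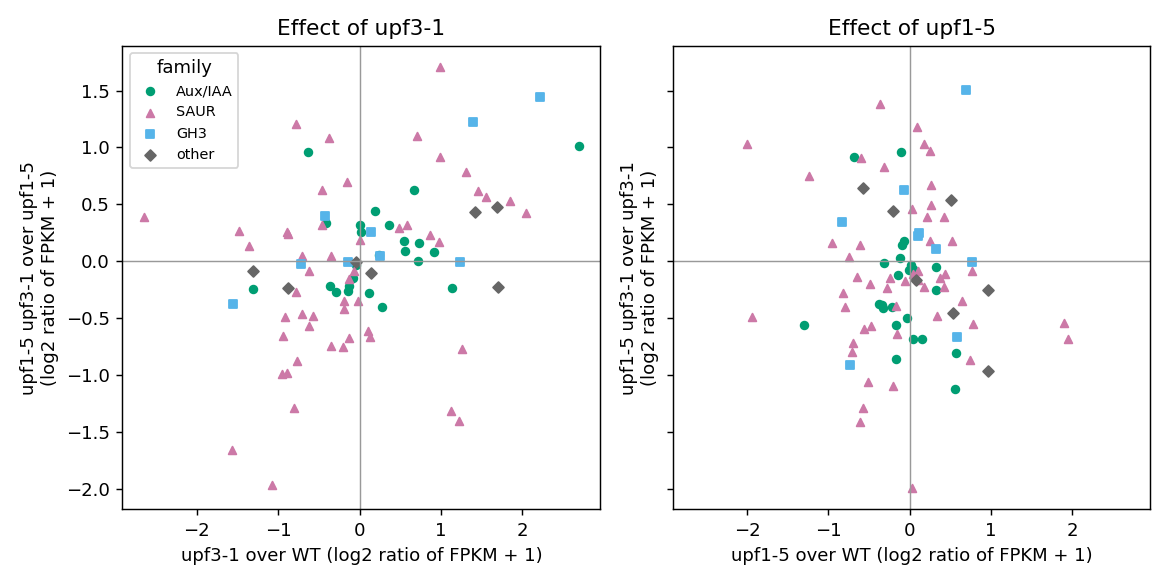
Log2 ratios (FPKM + 1) of each member for the effect of 1 mutation in the background of the other (vertical) against its effect in WT (horizontal), for *upf3-1* on the left and *upf1-5* on the right. Points are the 91 members, marked by family. The left panel has r = 0.376 and the right panel r = -0.087.

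Other parts of the auxin pathway were read from lists of locus IDs. None of the 6 receptors and, of the 15 ARFs, only *MP*, which patterns vasculature and the embryo, reached 2-fold in any mutant. Most of these genes had about 10 FPKM or more. Of all loci with such a mean, 7.12% were higher and 5.80% lower in *upf3-1*. In the double mutant these shares were 7.06% and 7.06%, and in *upf1-5* mutants 3.19% and 0.576%. So few genes cannot show whether these lists differ from such loci. *MP* had 9.48 FPKM in *upf1-5* mutants, 10.09 in *upf3-1* mutants, and 13.9 in the double mutant, against 6.53 FPKM in WT. *TIR1*, the receptor, had 45.3, 39.4, and 44.3 FPKM, against 52.7 FPKM in WT.

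Of 10 synthesis genes in the table, 8 passed the limits, with 3 higher and 1 lower in *upf3-1*, 2 higher and 0 lower in the double mutant, and 2 higher and 2 lower in *upf1-5* mutants. The shares of all loci were 14.6% higher and 6.91% lower in *upf3-1*, 15.0% and 6.91% in the double mutant, and 7.64% and 2.40% in *upf1-5* mutants. *YUC6*, a flavin monooxygenase of auxin synthesis, had 5.68, 10.96, and 8.46 FPKM in *upf1-5*, *upf3-1*, and the double mutant, against 4.30 FPKM in WT. *YUC3* and *YUC8* stayed below 5 FPKM in every library and were higher than in WT in each mutant, from only 0.562 and 0.544 FPKM in WT. The ratios to WT of *YUC3* were 2.83, 8.39, and 2.81, and those of *YUC8* were 3.63, 3.06, and 3.65. *YUC4*, with 1.94 FPKM in WT, was lower in each mutant, by 2.04-fold, 2.39-fold, and 1.82-fold. *YUC5*, with 1.12 FPKM in WT, was 3.53-fold lower in *upf1-5* and within 2-fold of WT in *upf3-1* and the double mutant. Of 4 genes for auxin breakdown or conjugate hydrolysis, *AT1G14120*, a neighbour of the *DAO1* oxidase gene, was higher in *upf3-1* mutants, with 29.1, 66.7, and 29.7 FPKM, against 33.0 FPKM in WT. It was the only one of the 4 past 2-fold in any mutant, which stands beside the same shares of all loci.

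Of 14 transport genes, 3 were higher and 1 was lower in *upf3-1*, 2 were higher in the double mutant, and 1 was higher in *upf1-5* mutants. These counts stand beside the same shares of all loci as those of the synthesis genes. *PIN2* (listed as *EIR1*), the auxin exporter of root epidermis and cortex, had 7.57 FPKM in *upf1-5* mutants, 13.2 in *upf3-1* mutants, and 19.6 in the double mutant, against 3.25 FPKM in WT. *ABCB4* (listed as *MDR4*), another root auxin transporter, had 10.7, 32.8, and 50.8 FPKM, against 6.68 FPKM in WT. *PIN2* is also 1 of the 6 root markers. *PIN2* and *ABCB4* were highest in the double mutant. Over the 14 transport genes the median log2 ratio to WT in the double mutant was -0.23, so this pair does not stand for the list. *WER*, a root epidermis marker, had 4.68, 16.5, and 11.5 FPKM, against 2.35 FPKM in WT, and was highest in *upf3-1*. The root markers did not all go one way, since *SCR* had 20.2, 11.5, and 15.7 FPKM, against 22.4 FPKM in WT, and *SHR* was within 1.3-fold of WT. The part of root tissue in the *PIN2* and *ABCB4* levels was not tested. The importer *LAX1* had 22.5, 13.5, and 18.7 FPKM, against 32.2 FPKM in WT.

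The *GH3* genes whose descriptions do not mention auxin include those that conjugate indole-3-acetic acid. *GH3.2* (listed as *YDK1*) had 4.61 FPKM in *upf1-5* mutants, 5.25 in *upf3-1* mutants, and 6.50 in the double mutant, against 2.40 FPKM in WT. *GH3.17* had 14.7, 21.8, and 30.9 FPKM, against 13.6 FPKM in WT. Both were highest in the double mutant, by 2.71-fold and 2.28-fold over WT. *GH3.5* had 10.3, 10.2, and 19.3 FPKM, against 11.9 FPKM in WT, and *GH3.3* and *GH3.6* stayed within 2-fold of WT in all mutants.

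NMD can act on transcripts with a long 3′-UTR, an exon junction far behind the stop codon, or an upstream open reading frame. Taking for each gene its longest coding model, a 3′-UTR of at least 350 nt, a splice junction over 50 nt downstream of the stop, or an upstream frame of at least 35 codons was annotated for 27 of 59 *SAUR* genes and 12 of 28 Aux/IAA genes. The coding sequence lies in 1 exon in 58 *SAUR* genes and in none of the Aux/IAA genes. Among the *SAUR* genes with calls in the double mutant, 7 of 12 higher, 3 of 12 lower, and 16 of 30 within 2-fold had such a feature. In *upf3-1* mutants these were 8 of 14, 8 of 12, and 10 of 27, and in *upf1-5* mutants 2 of 5, 1 of 6, and 20 of 40. No share over all protein-coding genes stands beside these counts, and the differences were not tested. Named members stand on both sides. *SAUR6*, with a 3′-UTR of 885 nt, has a feature and was lower, and *SAUR55*, with 367 nt, has a feature and was higher. *SAUR31*, with 319 nt, has none and was higher, and *SAUR14*, with 196 nt, has none and was lower in the double mutant.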

How the data were processed

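A pool of whole seedlings per genotype gave 4 RNA libraries. The authors aligned reads to TAIR10 with TopHat 2.0.6 and Bowtie 2 and compared all 6 pairs of libraries with Cuffdiff 2.2.1 after assembly with Cufflinks 2.2.1. The labels name a stranded mRNA kit, but the methods give a total RNA kit and rRNA depletion. Default alignment settings do not use strand, so overlapping and antisense genes may share fragments. The deposited FPKM is the sum of both libraries of a pair, as the authors' tools scaled it. The deposited fold is the higher FPKM over the lower. The deposited q-value holds the authors' own comparison and was not used. The name of the double mutant's column was matched by elimination, and both targeted genes are low in it. Pairs without a value in 1 library were not analysed here.

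Each library's FPKM was recovered from sum, fold, and direction, averaged over its pairs with weights from rounding error. Where several pairs gave an estimate at 1 FPKM or above (77490 values), 100% agreed within 1%. The recovery and the calls were tested on simulated tables. A gene was counted at 2-fold if either library had 1 FPKM or more, and medians used log2(FPKM + 1). With 1 library per genotype no test was made. Fragments were estimated from the spacing of low values, after subtracting 280 nt from transcript length, so precision is only known roughly. Gene models and sequences came from RefSeq TAIR10.1, in which all 105 members were matched by locus ID. Gene names follow the table or RefSeq synonyms, and role names such as *JAR1* are common names.

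Members, lists, and limits were chosen with earlier results of these data known. Named genes are, per family, members past 2-fold in the same direction in at least 2 mutants with 10 FPKM or more in at least 1 library, the 6 highest and lowest ratios in the double mutant among those of 5 FPKM or more, the 5 most abundant in WT, and those at the limit. Of the pathway lists, genes past 2-fold with 5 FPKM or more are named, except 1 that is not reported here. Members of clusters are named with their group. *SAUR15*, *SAUR16*, *SAUR49*, *SAUR57*, *GH3.12*, *AT1G48660*, *AT1G48670*, *IAA17*, *IAA29*, *IAA30*, *IAA20*, *IAA32* to *IAA34*, *YUC3*, *YUC4*, *YUC5*, *YUC8*, *TIR1*, *GH3.3*, *GH3.5*, *GH3.6*, and *WER*, and the genes whose sequences are shown, were chosen after their values were seen. Alternatives were other fold and FPKM limits, pseudocounts, and rescaled libraries. The software was Biopython 1.88, matplotlib 3.10.9, SciPy 1.17.1, pandas 2.3.3, NumPy 2.4.6, and Python 3.11.15.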

Additional observations from a re-analysis of the deposited data

Results flagged for a closer look

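Some members with 5 FPKM or more in at least 1 library passed 2-fold in opposite directions for the same mutation in both backgrounds. With 1 library per genotype these differences were not tested, and some rest on few fragments. How many of all loci have such opposite calls was not counted. For the *upf3-1* mutation, *SAUR53* was 4.02 times its WT level in *upf3-1* mutants, whereas the double mutant had 0.273 times the level of *upf1-5* mutants. *SAUR23*, a near copy of its cluster neighbours, was 3.20 times its WT level in *upf3-1* mutants and 0.317 times in the double mutant against *upf1-5*. For both genes WT had the lowest level and *upf1-5* the highest.

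For the *upf1-5* mutation, *SAUR56* was 0.169 times its WT level in *upf1-5* mutants, whereas the double mutant had 3.67 times the level of *upf3-1* mutants, the library in which it was lowest. *SAUR74* was 2.45 times its WT level in *upf1-5* mutants and 0.479 times in the double mutant against *upf3-1*. *IAA31* had ratios of 2.14 and 0.406 in these comparisons, and *AT4G17280* had 2.08 and 0.493. For both *SAUR74* and *IAA31*, the interval of the *upf1-5* ratio to WT was 0.635 to 10.8, which includes no difference. For *AT4G17280* it was 1.61 to 2.69. *SAUR56* had only an estimated 2.1 fragments in *upf3-1* mutants. For *SAUR74*, *IAA31*, and *AT4G17280* the highest level was in *upf3-1* and the lowest in WT.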

How the results depend on the processing

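No paired analysis was possible because each genotype has 1 library. The counts of members depend on the limits. The shares of all loci at the other limits below were not counted, so these counts do not show whether members exceed all loci there. With a fold of 1.5, 14 members were higher and 22 lower in *upf1-5*, 29 lower in *upf3-1*, and 27 lower in the double mutant. With a fold of 4, 2 were higher in *upf1-5*, 9 higher and 2 lower in *upf3-1*, and 5 higher and 4 lower in the double mutant. With 1 FPKM required in both libraries, 3 were lower in *upf1-5*, and 11 and 7 were higher in *upf3-1* and the double mutant. With 5 FPKM in at least 1 library, 5 were higher and 2 lower in *upf1-5*, 10 higher and 11 lower in *upf3-1*, and 5 higher in the double mutant. At that limit, chosen after the values were seen for these comparisons, the double mutant had 3 members higher than *upf1-5*, and 3 higher and 7 lower than *upf3-1*. A pseudocount of 1 left 3 higher and 4 lower members in *upf1-5* and 8 lower members in *upf3-1* mutants. A pseudocount of 0.1, no filter, and both rescalings kept every count within 1.5 times. The medians of all members lay between -0.19 (5 FPKM, double mutant) and -0.01 (75th percentile scaling, double mutant) under the alternatives. Medians within 0.1 of 0, as the main ones were, are read as no direction. The medians of all loci under these alternatives were not computed. For the ratios of 39 named genes, 455 of 468 values stayed on their side of 2-fold, 12 fell below it, and 1 (*SAUR32* in *upf3-1* mutants) passed it. Of the 12, 10 fell with a pseudocount of 1, which gave 117 of the values. The other values came from rescaling by factors between 0.993 and 1.05 or from the pair with WT alone, which hardly change a ratio. That 0 turned direction is no check, because these alternatives could hardly turn a 2-fold ratio. Values near 1 FPKM rest on few fragments and are the least certain.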
